A study of Homo sapiens with 2 samples.

Results

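A set of 6 genes of the sodium pump and the cation-chloride cotransporters was described in RNA from HEK293T cells, out of 60664 genes in the deposited files. They are the pump's beta subunit genes ATP1B1, ATP1B2 and ATP1B3 and the cotransporter genes SLC12A2, SLC12A4 and SLC12A7. They were taken by name, by matching the Ensembl IDs of the files to gene symbols, and all 6 were found. HEK293T is an established cell line of human embryonic kidney origin that was transformed with adenovirus DNA and later given the large T antigen of SV40. The 2 libraries are replicates 1 and 2 of 1 group of wild-type, untreated cells, so no treatment or genotype contrast exists. The labels spell the cell line of replicate 2 as HEK294T while its title reads HEK293T, and the title was followed. Separate cultures are not named in the labels, and a technical origin of the spread between libraries cannot be told apart from a biological one.

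The sodium pump moves sodium out of the cell and potassium in, at the cost of ATP. Its catalytic alpha subunit, not analysed here, needs a glycosylated beta subunit to fold, reach the plasma membrane and bind potassium properly. The gradients that the pump builds drive the SLC12 carriers. SLC12A2 encodes NKCC1, which brings sodium, potassium and chloride into the cell, whereas SLC12A4 (KCC1) and SLC12A7 (KCC4) encode potassium-chloride cotransporters that carry chloride out. Together these carriers set cell volume and intracellular chloride, and WNK kinases, through SPAK and OSR1, switch NKCC1 on and the KCCs off.

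Replicate 1 holds 18011638 assigned counts and replicate 2 holds 18575058. CPM is a gene's count divided by its library's total, on a common scale. For a gene with 0 counts the bound used is 3 counts, or 0.167 CPM in the first library and 0.162 CPM in the second. This is an approximate 95% upper bound and not an exact interval. Intervals on CPM are exact 95% binomial (Clopper-Pearson) intervals and cover counting error only. TPM divides each count by the deposited exon length before scaling to a common total, and levels of different genes are compared in TPM. Comparisons without length correction are given only to show what the length does. Values after ± are SD over the libraries (n = 2). The 6 markers known from HEK293 were detected in both libraries, among them SIX2, a nephron progenitor factor, at 22.5 ± 1.64 TPM and UCHL1, a neuronal deubiquitinase, at 334 ± 5.81 TPM. Of 5 markers of kidney tubule and podocyte 0 were detected, and of 4 blood and endothelial markers 0 were, with UMOD and CD3E at 0 counts. Across the libraries 88.3% of genes averaging at least 50 counts had a ratio within 0.5 log2.

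All 6 genes were detected, that is, they reached 1 CPM in both libraries, as did 65.9% of the 19890 protein-coding genes. ATP1B3 was by far the highest, ATP1B1 followed, both KCC genes lay in the middle, and SLC12A2 and ATP1B2 were low. These are bulk values, so a gene used by fewer cells and a gene with less RNA in each cell cannot be told apart. The median of the 6 was 4.96 TPM in replicate 1 and 5.66 in replicate 2, against 3.07 and 2.66 for all protein-coding genes. Together the 6 genes took 3021 counts in replicate 1 (0.0168% of the library) and 3022 in replicate 2 (0.0163%).

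**Figure D1:**
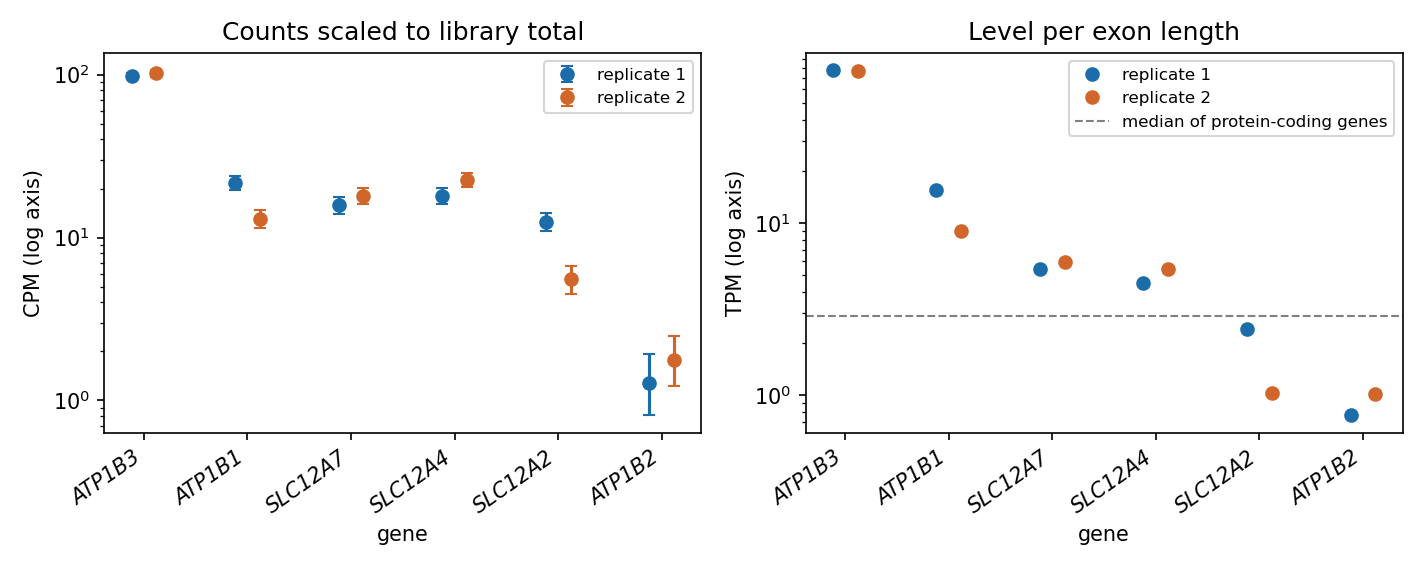
Levels of the 6 genes in replicate 1 (blue) and replicate 2 (orange), on log axes. The left panel gives CPM with exact 95% binomial intervals and the right panel TPM, with the median of protein-coding genes (2.88 TPM) as a dashed line. ATP1B3 stands near 77 TPM in both libraries, while the points of ATP1B1 and SLC12A2 are lower in replicate 2.

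ATP1B3 encodes the beta-3 subunit, which is found in many tissues. The gene lies on chromosome 3 from 141876124 to 141926549 (GRCh38, plus strand), with 13 merged exons of 2617 bases. It had 1772 counts in replicate 1 and 1890 in replicate 2. These were 98.4 CPM (93.9 to 103) and 102 CPM (97.2 to 106). The level was 77.6 TPM in replicate 1 and 76.9 in replicate 2, a mean of 77.3 ± 0.53. The libraries were thus nearly equal for this gene, with an SD of 0.686% of the mean. In replicate 1 it was above 93.8% of protein-coding genes and in replicate 2 above 94.0%. No exonic base was shared with another gene, and its processed pseudogene ATP1B3P1 had 2 counts and 0.

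ATP1B1 encodes the beta-1 subunit, the usual partner of the pump in kidney epithelium. It lies on chromosome 1 from 169105697 to 169132722 (plus strand), with 8 merged exons of 2865 bases. There were 392 counts in replicate 1 and 241 in replicate 2, or 21.8 CPM (19.7 to 24.0) and 13.0 CPM (11.4 to 14.7). The intervals did not meet, and replicate 2 was the lower. Per length the levels were 15.7 and 8.95 TPM, a mean of 12.3 ± 4.76. Of its exonic bases 192 (6.70%) are shared with NME7 on the opposite strand, which had 310 and 257 counts. The strand setting of the counting is not given in the sources used here, so reads in that stretch could belong to either gene. Its unprocessed pseudogene ATP1B1P1 had 0 counts and 1.

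ATP1B2 encodes the beta-2 subunit, known from glia, where it was described as an adhesion molecule. It lies on chromosome 17 from 7646627 to 7657770 (plus strand), with 10 merged exons of 3464 bases. There were 23 counts in replicate 1 and 33 in replicate 2. These were 1.28 CPM (0.809 to 1.92) and 1.78 CPM (1.22 to 2.49), so the intervals overlapped and no difference was detectable at this depth. Per length the gene had 0.761 and 1.01 TPM, and 35.6% and 39.0% of protein-coding genes lay below it. It was detected at 1 CPM but the lower bound in replicate 1 is under that threshold.

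Within the beta family, ATP1B3 supplied 82.5% of the summed TPM in replicate 1 and 88.5% in replicate 2. ATP1B1 made up 16.7% and 10.3%, and ATP1B2 0.809% and 1.17%. The ATP1B3 level was 4.95-fold that of ATP1B1 in replicate 1 and 8.59-fold in replicate 2, a mean log2 difference of 2.70 ± 0.56. Both libraries had the same order, and most of the change in this ratio came with the lower ATP1B1 count of replicate 2. Differences between genes were taken within each library, so each rests on 2 paired values and is given with its spread and no p-value. An exact permutation test of 2 libraries against 2 would ignore this pairing and cannot give a two-sided p below 0.333.

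SLC12A2 lies on chromosome 5 from 128083766 to 128189677 (plus strand), with 28 merged exons of 10653 bases, the longest of the 6 genes. It had 225 counts in replicate 1 and 103 in replicate 2, or 12.5 CPM (10.9 to 14.2) and 5.55 CPM (4.53 to 6.73). The intervals were well apart, with replicate 2 below replicate 1. Per length the levels were 2.42 and 1.03 TPM, a mean of 1.73 ± 0.984. By the deposited exon length, NKCC1 RNA thus lay below the protein-coding median in both libraries. It was above 46.9% of protein-coding genes in replicate 1 and 39.1% in replicate 2. This rank was not computed with another length. No exonic base was shared with another gene.

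SLC12A4 lies on chromosome 16 from 67943474 to 67969601 (minus strand), with 25 merged exons of 8298 bases. KCC1 is the broadly expressed member of its branch and is known for volume regulation in red cells. It had 324 counts in replicate 1 and 420 in replicate 2, or 18.0 CPM (16.1 to 20.1) and 22.6 CPM (20.5 to 24.9). Here replicate 2 was the higher, and the intervals did not meet. Per length the levels were 4.48 and 5.39 TPM, a mean of 4.93 ± 0.645. Of its exonic bases 336 (4.05%) are shared with LCAT on the same strand, a lipid enzyme gene with 112 and 72 counts.

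SLC12A7 lies on chromosome 5 from 1050384 to 1112063 (minus strand), with 25 merged exons of 6004 bases. KCC4 is known from kidney tubule and inner ear. It had 285 counts in replicate 1 and 335 in replicate 2, or 15.8 CPM (14.0 to 17.8) and 18.0 CPM (16.2 to 20.1). These intervals overlapped. Per length the levels were 5.44 and 5.94 TPM, a mean of 5.69 ± 0.352, and no exonic base was shared with another gene.

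The 3 cotransporter genes summed to 12.3 TPM in replicate 1 and 12.4 TPM in replicate 2, but in different proportions. SLC12A2 made up 19.6% of the sum in replicate 1 and 8.33% in replicate 2. SLC12A4 made up 36.3% and 43.6%, and SLC12A7 44.1% and 48.1%. The summed level of SLC12A4 and SLC12A7 was 4.10-fold that of SLC12A2 in replicate 1 and 11.0-fold in replicate 2. On the log2 scale NKCC1 lay below this KCC sum by a mean difference of -2.75 ± 1.01, so the direction was shared by the libraries and the size was not. The sum holds these 2 KCC genes alone.

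The order of SLC12A4 and SLC12A7 depended on the exon length used. With the deposited exon lengths SLC12A4 was the lower in both libraries, with a log2 difference in TPM of -0.28 in replicate 1 and -0.14 in replicate 2. The deposited length merges all annotated exons. When GENCODE 29's longest coding transcript gave the length instead (4765 bases for SLC12A4 and 5280 for SLC12A7), the difference turned to 0.33 and 0.47. Of the other members, that length was 6885 bases for SLC12A2, 2608 for ATP1B1, 1811 for ATP1B3 and 3153 for ATP1B2, and no other pair of neighbours in the order changed places.

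**Figure D2:**
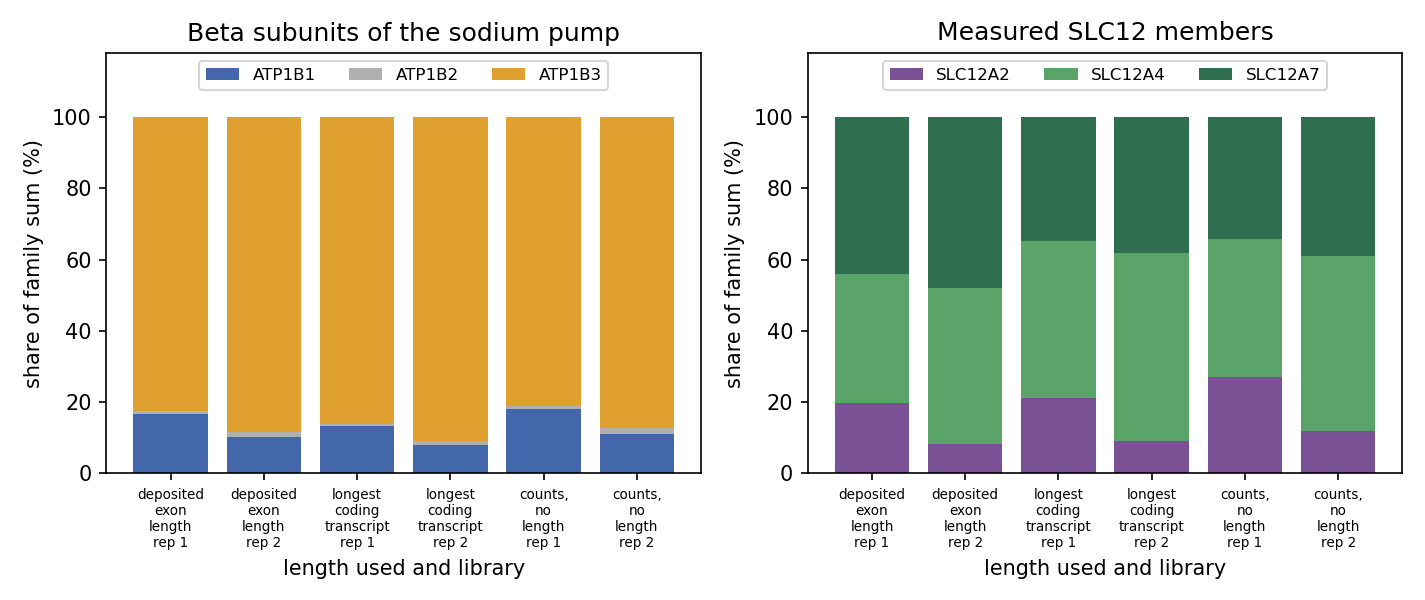
Share of each gene in the summed level of its family, in percent, for the beta subunits (left) and the 3 SLC12 genes (right). Each library is drawn with TPM by deposited exon length, TPM by longest coding transcript and counts without length correction. ATP1B3 holds over 80% of every beta bar, and the SLC12A2 share is smaller in replicate 2 in every pair of bars.

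By mean TPM the order of the 6 genes was ATP1B3, ATP1B1, SLC12A7, SLC12A4, SLC12A2 and ATP1B2. ATP1B1 was 2.88-fold above SLC12A7 in replicate 1 and 1.51-fold in replicate 2. SLC12A4 was 1.85-fold above SLC12A2 in replicate 1 and 5.23-fold in replicate 2. SLC12A2 exceeded ATP1B2 by 3.18-fold in replicate 1 but by 1.01-fold in replicate 2. Within libraries the log2 difference between SLC12A2 and ATP1B2 was 0.85 ± 1.17, so these neighbours did not differ beyond their spread. That between SLC12A7 and SLC12A4 was 0.21 ± 0.10, which is larger than its spread but turned with the choice of length.

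The promoters of the 3 cotransporter genes are shown because these genes belong to 1 carrier family and include the member with the lowest ratio of replicate 2 to replicate 1. The windows are the 250 bases before a RefSeq start (GRCh38.p14), and they hold no base of a deposited exon. SLC12A2 is read at chr5:128083516-128083765 (plus strand), SLC12A4 at chr16:67968695-67968944 (minus strand) and SLC12A7 at chr5:1112064-1112313 (minus strand). Capitals mark matches to the GC box letters GGGCGG on either strand, and neighbouring matches may overlap.
SLC12A2: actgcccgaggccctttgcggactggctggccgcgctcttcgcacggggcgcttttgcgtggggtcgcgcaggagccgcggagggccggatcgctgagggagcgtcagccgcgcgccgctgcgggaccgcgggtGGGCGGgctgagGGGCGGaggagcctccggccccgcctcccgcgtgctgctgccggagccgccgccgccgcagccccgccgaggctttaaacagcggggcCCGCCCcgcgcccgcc
SLC12A4: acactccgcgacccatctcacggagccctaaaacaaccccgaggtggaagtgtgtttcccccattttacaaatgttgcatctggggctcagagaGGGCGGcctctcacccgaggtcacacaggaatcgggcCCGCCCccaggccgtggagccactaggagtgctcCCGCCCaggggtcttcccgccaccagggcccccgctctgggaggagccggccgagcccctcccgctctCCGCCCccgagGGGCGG
SLC12A7: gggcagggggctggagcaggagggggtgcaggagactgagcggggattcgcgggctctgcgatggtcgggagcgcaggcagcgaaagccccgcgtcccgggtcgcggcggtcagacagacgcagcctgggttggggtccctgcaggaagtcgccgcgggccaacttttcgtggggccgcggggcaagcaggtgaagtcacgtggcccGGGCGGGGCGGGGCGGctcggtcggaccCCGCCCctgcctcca
The SLC12A2 window held 3 such matches, the SLC12A4 window 5 and the SLC12A7 window 4. Of 27305 promoter windows of this length 42.3% held at least 1. None of the 3 windows held CCAAT or TATAAA on either strand, letters found in 33.0% and 11.1% of all windows. GC content was 79.6% for SLC12A2, 68.4% for SLC12A4 and 74.4% for SLC12A7, against a median of 58%. All 3 are thus GC-rich windows without these TATA letters, whichever library was the higher. A match is a description of the letters and not a measured site. The SLC12A4 window lies inside the annotated gene, since annotated transcripts start upstream of it at 67969601 and 67969192. Further RefSeq starts of SLC12A4 are not shown, and their windows run into annotated exons. Those windows hold 8, 0 and 0 GC box matches and 0, 1 and 0 CCAAT matches. The windows listed for ATP1B1 and ATP1B3 run into annotated exons, by 250 and 29 bases. The ATP1B2 window lies 4485 bases from the start of its transcript with the longest coding sequence, so those 3 were not used.

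The libraries were next compared gene by gene, as log2 of replicate 2 over replicate 1 with edgeR's TMM scaling, for genes averaging at least 50 counts. Of the 6 genes, 5 passed this filter, and ATP1B2 did not. SLC12A2 was lower in replicate 2 by 1 log2 or more, 1 of 5, as were 1.92% of 14704 genes. None of the 5 was higher by 1 log2, as were 0.143% of genes, and 2.06% of genes passed 1 log2 in either direction. A ratio of 1 library to 1 library has no check by replication, so no p-value is given.

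The SLC12A2 ratio was -1.13, with an interval from counting error alone of -1.49 to -0.80, and 198 genes had a lower one. ATP1B1 followed at -0.71 (-0.95 to -0.48), with 616 genes lower. These 2 genes stood apart from the other members. SLC12A4 had a ratio of 0.36 (0.15 to 0.57), SLC12A7 0.22 (-0.01 to 0.45) and ATP1B3 0.08 (-0.02 to 0.17). ATP1B2, under the count filter, had 0.47 with an interval from -0.30 to 1.34. Intervals of SLC12A7, ATP1B3 and ATP1B2 held 0. The ratio of SLC12A2 and that of either KCC gene thus differed by more than counting error. The spread edgeR estimates between the libraries beyond counting, its biological coefficient of variation, was 15.6% over 18315 genes. At the counts of these members its trend ran from 12.1% for ATP1B3 to 18.4% for SLC12A2 and 20.0% for ATP1B2.

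**Figure D3:**
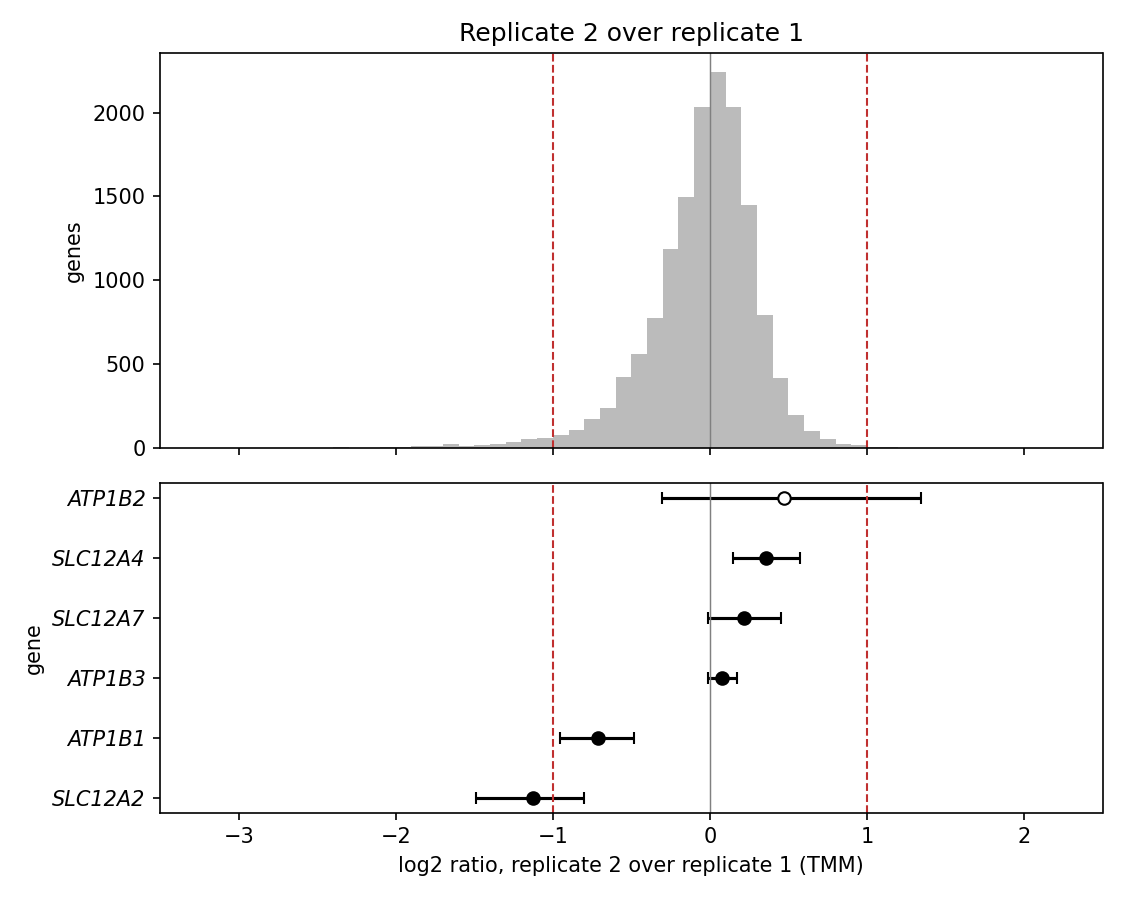
Log2 ratio of replicate 2 over replicate 1. The upper panel is a histogram of genes averaging at least 50 counts, in the range shown, and the lower panel gives the 6 genes with 95% intervals for counting error. Filled points passed the count filter and the open point did not. Dashed lines mark 1 log2, which SLC12A2 alone of the 6 passed.

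GC content moved with the ratio across all genes, and the values of SLC12A2 are given with that. GC content was taken from the longest coding transcript, or from the longest transcript where a gene has no coding one. In the 728 genes of lowest GC content (below 37.2%) the median ratio was -0.44, and 15.4% were lower by 1 log2. From 47% GC upward the bin medians lay between 0.01 and 0.13. The SLC12A2 transcript has 41.2% GC, and its bin of 728 genes had a median of -0.16 with 2.20% lower by 1 log2. After centring on that median SLC12A2 was at -0.97, just inside 1 log2, so its place past the threshold depends on this step. Over the 14547 genes with a transcript in GENCODE 29 the same centring changed the split from 281 lower and 20 higher to 154 and 32.

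ATP1B1, at 47.0% GC, had a bin median of 0.01 and a centred ratio of -0.72. Before centring, its ratio of -0.71 was below the 5th percentile of its bin at -0.54. SLC12A2, at -1.13 before centring, was also below the 5th percentile of its bin, which was -0.75. ATP1B3, at 43.1% GC, was at 0.14 after centring. SLC12A4 and SLC12A7 have transcripts of 60.9% and 61.0% GC and were at 0.24 and 0.10. The order of the ratios of the 5 genes with enough counts thus changed only between ATP1B3 and SLC12A7. The part of GC content in these ratios was not tested beyond this centring.

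**Figure D4:**
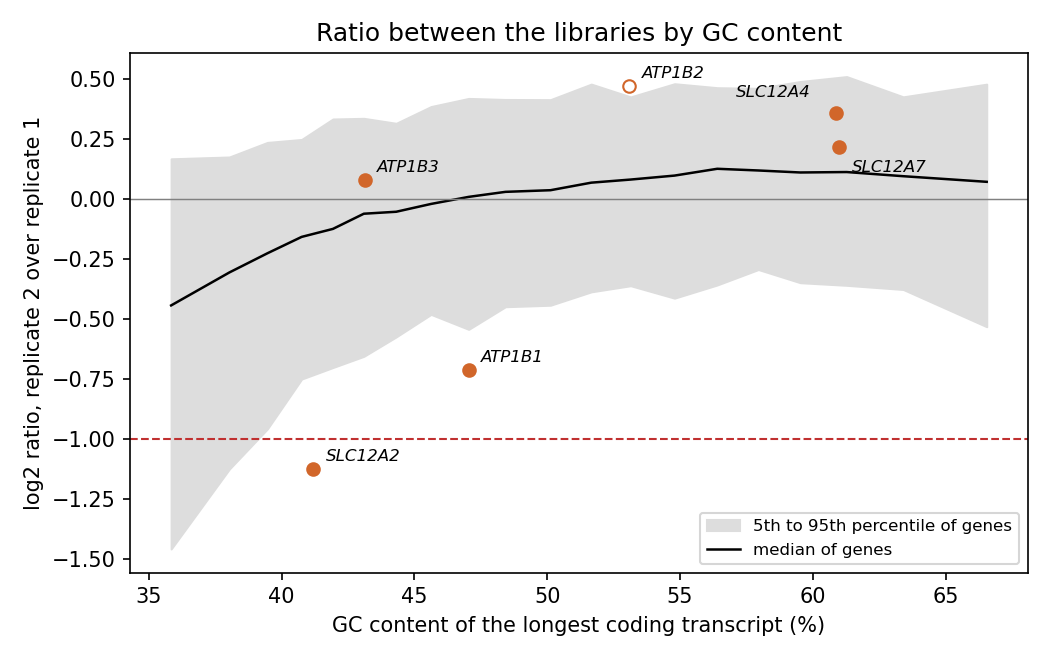
Log2 ratio of replicate 2 over replicate 1 against GC content of the longest coding transcript, or the longest transcript where none is coding. The line is the median and the band the 5th to 95th percentile of genes in 20 bins. Points are the 6 genes, with ATP1B2 open because it was under the count filter. SLC12A2 and ATP1B1 lie below the band, SLC12A4, SLC12A7 and ATP1B3 lie inside it, and ATP1B2 lies just above.

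Genes with nearly the same pair of levels were looked up among protein-coding genes, by distance in log2(TPM + 0.1) over the 2 libraries. With 2 libraries such likeness says little beyond the level. Nearest to ATP1B3 were POLDIP2 (78.0 and 77.3 TPM in replicates 1 and 2) and the RNA polymerase subunit gene POLR2E (78.1 and 77.3). Nearest to ATP1B1 were the nuclear import receptor gene TNPO1 (15.9 and 8.84 TPM) and GLMN (15.4 and 9.15). The nearest to SLC12A2 were GPR137C (2.36 and 0.982 TPM) and the chromatin remodeller gene CHD9 (2.55 and 1.03). ABR and EML2 were nearest to SLC12A4, EYA3 and ZNF226 to SLC12A7, and GFRA1 and ZNF557 to ATP1B2.

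The FXYD genes, which encode small membrane proteins that tune the pump, were listed with ATP1B4, a further relative of the beta subunits. Of these 8 genes 2 were detected, both of them FXYD genes, beside 65.9% of protein-coding genes. The list had a median of 0.0695 TPM against 2.88 for all protein-coding genes. FXYD5, also called dysadherin, had 211 and 149 counts (6.70 ± 1.97 TPM). FXYD6 had 237 and 263 counts (5.53 ± 0.117 TPM), and 20.4% of its exonic sequence overlaps other genes. FXYD2, the gamma subunit of the kidney pump, and FXYD4 had 0 counts in both libraries.

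Of 6 other SLC12 genes 3 were detected, beside 65.9% of protein-coding genes, with a median of 0.50 TPM. SLC12A9, an SLC12 relative that is not a classical cotransporter, had 416 and 541 counts (5.91 ± 0.786 TPM), close to SLC12A7. The carriers that reabsorb salt in the kidney were all but missing. SLC12A1, which encodes NKCC2 of the thick ascending limb, had 1 and 3 counts. SLC12A3, which encodes the thiazide-sensitive carrier of the distal tubule, had 0.

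The WNK and SPAK kinase pathway, which acts on the cotransporters, was detected in full, 12 of 12 genes beside 65.9% of protein-coding genes, at a median of 3.17 TPM. CAB39, a scaffold that activates SPAK and OSR1, had 947 and 795 counts (18.0 ± 3.16 TPM). OXSR1, which encodes the kinase OSR1, had 658 and 697 counts (12.3 ± 0.145 TPM). KLHL3, the adaptor that targets WNK kinases for degradation, had 0.555 ± 0.0357 TPM and the ubiquitin ligase gene NEDD4L 0.39 ± 0.123. Of 11 genes with enough counts 0 passed 1 log2 between the libraries, beside 2.06% of all genes, and 9 ratios were below 0 and 2 above. Over all genes 7347 were below 0 and 7357 above. The lean was not particular to this list: the 6 lists of related genes together, this one included, had 24 below 0 and 8 above. Only the other SLC12 genes leaned the other way, with 1 below and 2 above. The part of GC content in this lean was not tested.

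Volume-regulated anion channel genes, which let chloride and osmolytes out of swollen cells, were detected 5 of 5, beside 65.9% of protein-coding genes. Their median was 2.87 TPM, the level of a gene with 74.3% of its exonic sequence overlapping other genes. LRRC8D had 8.17 ± 0.444 TPM and LRRC8A, the obligatory subunit, 6.91 ± 0.213. LRRC8B had 2.75 ± 0.616 and LRRC8C 1.72 ± 0.15. Osmolyte response genes were detected 6 of 6, beside the same 65.9%, at a median of 5.88 TPM. Their highest were AKR1B1, which makes sorbitol, at 173 ± 10.5 TPM and the amino acid carrier gene SLC38A2 at 43.0 ± 8.35.

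Of 8 other P-type pump genes 5 were detected, a share near the 65.9% of protein-coding genes, at a median of 4.68 TPM. ATP2A2, the calcium pump of the endoplasmic reticulum, had 11.6 ± 0.22 TPM and ATP13A1 9.92 ± 2.01. ATP4B, the beta subunit of the gastric proton pump and a relative of the ATP1B genes, had 0 counts, and ATP12A had 1 and 5. Across these 6 related lists 0 of 32 genes with enough counts passed 1 log2 between the libraries in either direction, beside 2.06% of all genes.

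**Figure D5:**
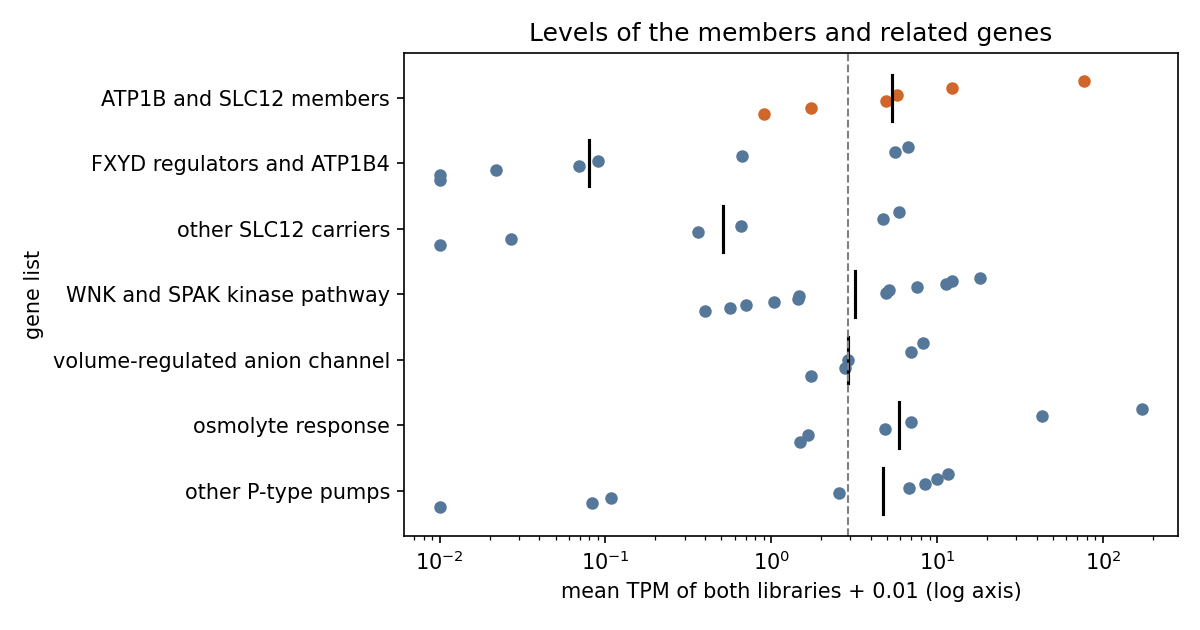
Mean TPM of both libraries for each gene of 7 lists, plotted as TPM + 0.01 on a log axis so that genes at 0 can be drawn. Short bars are list medians and the dashed line is the median of all protein-coding genes. The ATP1B and SLC12 members span 0.888 to 77.3 TPM, and the list of FXYD genes and ATP1B4 holds the lowest median of the 7.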

How the data were processed

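RNA was extracted with TRIzol, treated with DNase I and primed with oligo(dT), and the cDNA was sheared for a single-strand library kit, per the labels' protocols. The authors deposited raw counts per gene, 1 library per file, not normalised. The tools listed in the submitters' processing notes are bcl2fastq 2.17 and Trim Galore 0.6.7 along with featureCounts 2.0.3, on build GRCh38. How reads were aligned, which annotation release was used and how strand and overlap were handled is not given in the sources used here.

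Of 60664 IDs 60463 matched a symbol, and 58396 were typed by GENCODE 29. CPM and TPM were computed here from the counts, totals and deposited exon lengths with pandas 2.3.3, and exon overlap with bedtools 2.31.1. Ratios between libraries used edgeR 4.0.16 (TMM, prior count 2), with DESeq2 1.42.0 size factors as an alternative. No test between groups was run, since there is 1 group. Data over 14704 genes were also simulated with a coefficient of variation of 10%, below the 15.6% estimated here. Of 200 genes changed 4-fold 100% passed 1 log2, as did 0.0276% of unchanged genes. A 4-fold change lies far past that threshold, and no GC trend was simulated. These shares thus do not apply to ratios near 1 log2, such as that of SLC12A2. Nor do they apply to the real libraries, where 2.06% of genes passed.

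Named genes are the 6 members, the 2 highest and 2 lowest of each list by mean TPM, and the 2 nearest genes of each member. A few of these are not reported here but count in their lists' medians and totals. The members and lists were chosen with earlier results of these data known.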

Additional observations from a re-analysis of the deposited data

How the results depend on the processing

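The number of detected members was 6 with either library alone, which could not be otherwise since all 6 had reached 1 CPM in both. It was 5 at 5 CPM or at 1 TPM, ATP1B2 being the one lost. The log2 difference of ATP1B3 over ATP1B1 lay between 2.31 and 3.10 and that of SLC12A2 to the summed KCC genes between -3.46 and -2.03 when either library was left out. Both kept their direction with other lengths and with CPM. The log2 difference of SLC12A4 to SLC12A7 turned from -0.21 to 0.40 with the longest coding transcript and to 0.26 with CPM, the exon length being the only change. The number of members past 1 log2 between the libraries was 1 under 5 alternatives and 0 after centring on GC content. Among the 5, the looser count filters could only add ATP1B2, whose ratio was 0.47, so they could not change the number. The DESeq2 size factors were 1 in both libraries, so that alternative compared the counts unscaled. Over all genes, lower and higher calls were 282 and 21, against 274 and 22 with DESeq2 size factors, 562 and 214 for genes averaging at least 10 counts, 2257 and 1172 with no filter, and 154 and 32 after centring on GC content over the 14547 genes with a transcript (281 and 20 in these without centring). TPM over genes that share under 25% of their exonic bases and without mitochondrial genes changed the scale of every member alike, to 148 for ATP1B3 and 3.29 for SLC12A2. No contrast between groups was possible because the labels give 1 group, and differences between genes were taken within each library. Depth limits ATP1B2 most, at 23 and 33 counts.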

Other observations

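SLC12A2-DT, a noncoding RNA gene that is transcribed away from the SLC12A2 start on the opposite strand, had 320 counts in replicate 1 and 314 in replicate 2 (2.22 and 2.02 TPM, log2 ratio -0.04). SLC12A2 itself had 225 and 103 counts. The noncoding gene was therefore the lower per length in replicate 1 and the higher in replicate 2. It was looked up after the SLC12A2 values were seen, its exons span 16550 bases, and with 1 library on each side the difference between the ratios was not tested.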
